A study of Mus musculus with 9 samples.

Results

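Voltage-gated calcium and sodium channels set how a neuron fires and how its terminals release transmitter, and the genes that encode their subunits were followed here through the cholinergic neurons of the adult mouse spinal cord. A calcium channel is built around 1 pore-forming subunit from the *Cacna1* family, which fixes the current type (L-type, P/Q-type, N-type, R-type or the low-threshold T-type), with an extracellular alpha2delta subunit (*Cacna2d*) and an intracellular beta subunit (*Cacnb*) that aid its transport to the membrane. A sodium channel has a large pore-forming alpha subunit (*Scn1a* to *Scn11a*) and smaller beta subunits (such as *Scn2b*, *Scn3b* and *Scn4b*). Most *Cacng* genes, once grouped with the calcium channel, encode transmembrane proteins that regulate AMPA-type glutamate receptors (TARPs).

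The genes were taken by symbol: every row of the expression matrix whose name starts with *Cacna1*, *Cacna2d*, *Cacnb* or *Cacng*, or names a sodium channel alpha or beta subunit. This gave 39 of 21457 genes: 9 *Cacna1*, 4 *Cacna2d*, 4 *Cacnb* and 8 *Cacng* genes, 10 sodium channel alpha genes and 4 beta genes. The mice carried Chat-IRES-Cre and a Cre-dependent Sun1-sfGFP fusion, 1 copy of each (genotype label Chat-iCre:+/wt; SUN-SfGFP:+/wt). Every library shared this genotype, and there was no treatment. The fusion marks the nuclear envelope of every cell that has ever expressed the Cre, so the sort can also take nuclei that are not cholinergic in the adult, and only the 16042 nuclei that the authors annotated as cholinergic, of 34231, were used. Cords of 8-week-old mice were cut into cervical, thoracic and lumbar/sacral parts, and each part was pooled over 4 mice: replicate 1 held 2 males and 2 females, replicate 2 held 4 males and replicate 3 held 4 females. The 9 libraries therefore came from 3 pools of mice, the libraries of a pool are not independent animals, and sex cannot be told apart from pool. The authors assigned the nuclei to 21 clusters: skeletal motor neurons (S1 to S3, 5054 nuclei), visceral motor neurons (V1 to V10, 5613 nuclei) and interneurons (I1 to I8, 5375 nuclei). The labels of S1, S2 and S3 were type 3, alpha and gamma motor neurons.

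Levels are given as CPM, the corrected counts of a gene scaled to a total of 1e+06 corrected counts summed over the nuclei of a class or cluster in 1 library. Median corrected totals per nucleus ran from 4712 to 16127 between libraries. The class labels matched their markers: *Tns1* stood at 354 to 400 CPM in S1 to S3 and at most 58.7 CPM in the other clusters, *Fbn2* was highest in the visceral clusters, and *Pax2* stood at 98.3 to 380 CPM in I1 to I7 but at 9.55 CPM in I8, which had *Mpped2* at 766 CPM. *Zeb2* was high in the visceral clusters except V7 (41.9 CPM) and V8 (7.79 CPM). The markers of oligodendrocytes summed to 54.9 to 92.5 CPM in skeletal, 36.5 to 61.6 CPM in visceral and 37.7 to 54.9 CPM in interneuron sums, those of endothelium to 1.61 to 6.33 CPM and those of microglia to 4.52 to 118 CPM, and their part in the class differences was not tested. In skeletal nuclei the position gene *Hoxc5* stood at 16.1 and 15.6 CPM in cervical replicates 1 and 3 but at 82.5 CPM in cervical replicate 2, and at 101 and 94.5 CPM in thoracic replicates 1 and 3 but at 9.44 CPM in thoracic replicate 2. These libraries labelled cervical and thoracic replicate 2 thus each resembled the other part of the cord. The lumbar/sacral libraries were compared only with all others together, which an exchange of those libraries does not change, and *Hoxd11* was above 0 only in the 3 lumbar/sacral libraries. The S2 nuclei of cervical replicate 2 also stood apart, with *Tns1* at 80.5 CPM against 311 to 450 CPM in the S2 nuclei of the other 8 libraries and the visceral marker *Zeb2* at 133 CPM against 0 to 9.35 CPM. All comparisons were also made without cervical and thoracic replicate 2. Between libraries, 33 barcode sequences recurred (66 nuclei).

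A group of 7 channel genes was hardly detected in any cluster. It included the sodium pore and the gamma subunit of skeletal muscle, some sodium pores of sensory neurons and a calcium pore of the retina. The highest cluster mean was 0.714 CPM for *Scn4a*, the muscle sodium channel, 0.975 CPM for *Scn10a* and 0.631 CPM for *Scn11a*, both channels of sensory neurons, 4.04 CPM for *Cacna1f*, the retinal L-type pore, 5.74 CPM for *Cacna2d4* and 2.11 CPM for *Cacng1*, the gamma subunit of muscle. *Cacng6* was at 0 in all 16042 nuclei. The other 32 genes reached 10 CPM in at least 1 cluster, and 20 of these 32 differed at least 4-fold between their highest and lowest cluster (ratio after adding 5 CPM), as did 22.9% of the 12131 genes of the matrix that reached 10 CPM. The median of that ratio was 6.62 for the 32 channel genes and 2.17 for the 12131 genes. The clusters were drawn from the same nuclei, so these cluster values are a description with no test.

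**Figure D1:**
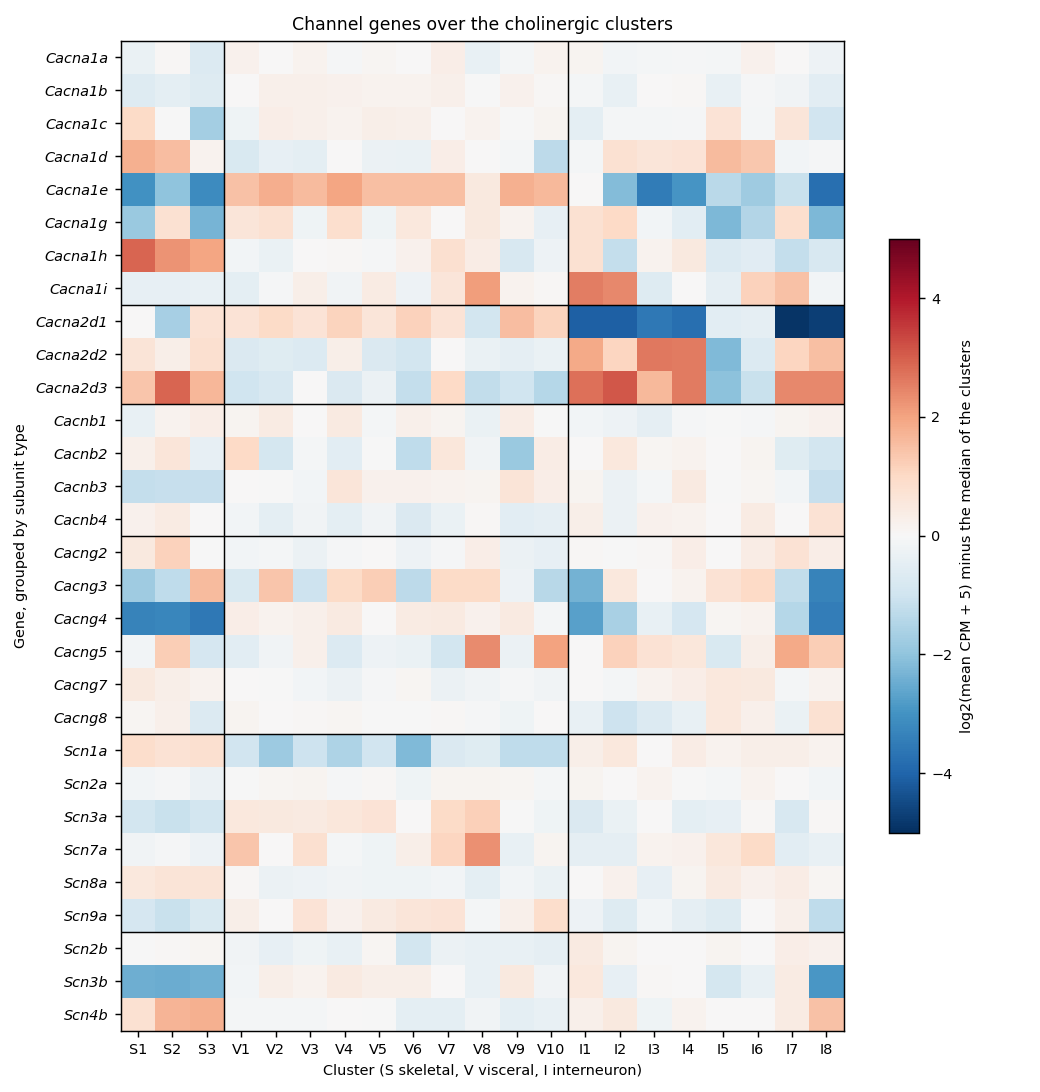
Mean level of 30 of the channel genes that reached 10 CPM (rows, grouped by subunit type) in the 21 clusters (columns), as log2(mean CPM + 5) minus the median of that gene over the clusters, with means over the libraries that held at least 10 nuclei of a cluster. *Cacna1e* is high in the visceral columns, *Cacna2d1* and *Cacna2d3* are high in largely opposite columns, and *Scn2a* is close to 0 throughout.

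Among the pore genes of calcium channels, those of the P/Q-type and N-type were spread evenly and those of the other types were not. *Cacna1a*, the P/Q-type pore, ranged only from 494 CPM (S3) to 981 CPM (V7), and *Cacna1b*, the N-type pore, from 253 CPM (S1) to 490 CPM (V7). *Cacna1e*, the R-type pore, ranged from 21.4 CPM in I8 to 1411 ± 272 CPM (SD, n = 9 libraries) in V4. All visceral clusters but V8 had *Cacna1e* at 1012 CPM or more, V8 had 499.9 ± 76.5 CPM (n = 3 libraries), and the highest cluster outside the visceral set was I1 with 359 ± 40.3 CPM. The 3 T-type pores divided the clusters differently. *Cacna1h* stood at 46.5 to 92.5 CPM in S1 to S3 and at most 17.6 CPM elsewhere. *Cacna1i* stood at 46.6 CPM in I1, 42.1 CPM in I2 and 32.9 CPM in V8, with at most 19.2 CPM elsewhere. *Cacna1g* was highest in I2 (69.5 CPM), and its median over the 21 clusters was 32.8 CPM. Among the skeletal types it stood at 59.0 CPM in S2 but 5.32 CPM in S1 and 2.49 CPM in S3, and I5 had 3.02 CPM.

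The alpha2delta genes *Cacna2d1* and *Cacna2d3* were high in largely opposite sets of clusters, and both sets crossed the 3 classes. *Cacna2d1*, whose product binds gabapentin, stood between 1454 and 2822 CPM in all visceral clusters except V8 (505 ± 89.5 CPM, n = 3), at 1576 CPM in S3, 952 CPM in S1, 302 CPM in S2, and at 665 and 703 CPM in the interneuron clusters I5 and I6, but at 26.7 to 74.7 CPM in the other 6 interneuron clusters. *Cacna2d3* stood at 1200 CPM in S2 and at 482 to 1344 CPM in those same 6 interneuron clusters, but at 33.1 and 68.7 CPM in I5 and I6 and at 53.5 to 307 CPM in the visceral clusters. *Cacna2d2* was highest in I3 (397 ± 101 CPM) and I4 (387 ± 82.5 CPM) and lowest in I5 (9.16 CPM). The interneuron clusters I5 and I6 thus had more *Cacna2d1* than the other interneuron clusters, but less than S1, S3 and every visceral cluster except V8. They had *Cacna1d* at 856 and 719 CPM, above every visceral cluster (112 to 361 CPM) and below S1 (973 CPM).

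The sodium pores divided the clusters less than the calcium pores. *Scn2a* had the smallest spread among the genes above 10 CPM, from 271 CPM (S3) to 382 CPM (I6), a ratio of 1.40, and 2.16% of the 12131 genes had a ratio no larger than this. *Scn8a*, the main channel of the axon initial segment and nodes in adult neurons, ranged from 172 CPM (V8) to 392 CPM (S2). *Scn1a* was highest in S1 (504 CPM) and lowest in V6 (55.3 CPM), and every visceral cluster was below every other cluster, with V8 (181 CPM) the highest of them and I3 (275 CPM) the next above. *Scn3a*, better known from developing neurons, was highest in V8 (391 CPM) and V7 (337 CPM) and lowest in S2 (75.9 CPM). *Scn7a*, which encodes a sodium-sensing relative of the family, stood at 35.6 ± 12.4 CPM in V8 (n = 3) against at most 16.8 CPM elsewhere.

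The first comparison was between the classes of nuclei: within each library, the corrected counts of all S, all V and all I clusters were summed, and log2(CPM + 5) was compared over the 9 libraries with limma, with the library as a term and Benjamini-Hochberg adjustment over 11292 genes. Of the 39 genes 31 passed the filter of 10 CPM in 3 sums, 23 of them in every class. *Cacna1h*, *Scn4b* and *Scn7a* passed through 1 class only and *Cacna1i*, *Cacnb3*, *Cacng4*, *Cacng5* and *Scn3b* through a pair of classes, so that some difference was built into their inclusion. Because the classes were defined on the same nuclei, the adjusted p-values say how steady a difference between labels was over libraries, and they rest on 3 pools of mice. In bulk sums of this kind, fewer nuclei with the transcript and less transcript per nucleus cannot be told apart.

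Skeletal and visceral motor neurons differed in 27 of the 31 tested channel genes at adjusted p under 0.05 (12 higher and 15 lower in skeletal), where the background was 66.7% of all genes tested (30.1% higher and 36.7% lower). At least 2-fold differences were found for 14 of the 31 (7 in each direction), against 11.8% of all genes. Of these 14, *Cacna1h* and *Scn4b* had passed the filter through skeletal sums alone. *Cacnb3*, *Cacng4* and *Scn3b* had passed through visceral and interneuron sums alone. A difference was thus built into their inclusion, and the excess over 11.8% is not read as a result about the family. The 27 also include these genes, *Cacna1i* and *Scn7a*. All 8 tested calcium pores and all 6 tested sodium pores were called, and the members not called were *Cacnb1*, *Cacnb2*, *Cacng3* and *Cacng5*. The median log2 difference of the 31 genes was -0.15 and that of all genes -0.04.

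*Cacna1e* showed the widest separation. Its level was 25.8 to 196 CPM over the 9 skeletal sums (median 38.3) and 751 to 1358 CPM over the visceral sums (median 1093). The groups did not overlap, and the highest skeletal value was that of cervical replicate 2, whose S2 nuclei carried *Zeb2*. The log2 difference was -4.36 ± 0.22 (SE; adjusted p = 3.15e-13), lower in skeletal in 9 of 9 libraries. Interneurons stood between, at 102 to 184 CPM, 2.81 ± 0.22 below visceral on the log2 scale (adjusted p = 9.35e-10). *Cacna1h* ran the other way, at 30.3 to 83.2 CPM in skeletal sums (median 67.6), 6.52 to 12.7 CPM in visceral sums (median 8.95) and 5.85 to 12.3 CPM in interneuron sums. It had passed the filter through skeletal sums alone, so a difference was built into its inclusion. Skeletal sums lay above all others, by 2.22 ± 0.09 against visceral (adjusted p = 3.22e-15) and by 2.27 ± 0.09 against interneurons (adjusted p = 2.83e-15). The L-type pore *Cacna1d* was at 570 to 689 CPM in skeletal sums and 166 to 329 CPM in visceral sums, a log2 difference of 1.47 ± 0.10 (adjusted p = 4.21e-11), while the other L-type pore, *Cacna1c*, differed by -0.22 ± 0.04 (adjusted p = 4.70e-05).

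**Figure D2:**
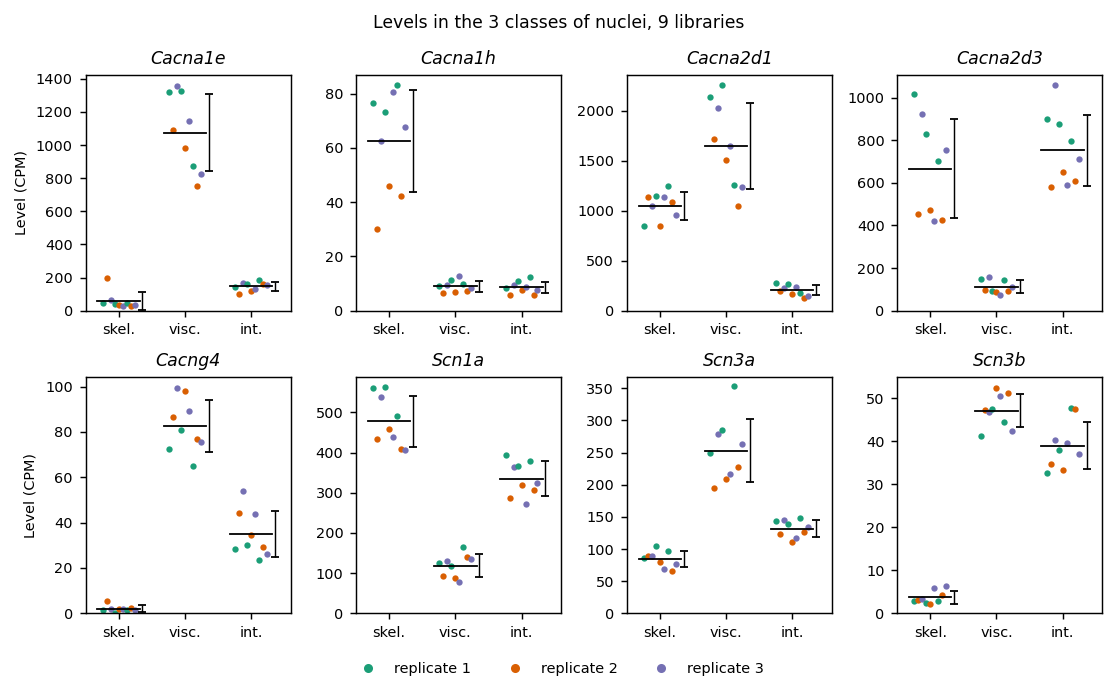
Level in CPM (linear axes from 0) of 8 channel genes in skeletal motor neurons (skel.), visceral motor neurons (visc.) and interneurons (int.), 1 point per library coloured by replicate number, with the mean as a line and the SD over 9 libraries as a bar. Skeletal and visceral points are apart for *Cacna1e*, *Cacna1h*, *Cacna2d3*, *Cacng4*, *Scn1a*, *Scn3a* and *Scn3b*, while for *Cacna2d1* visceral sums from 1048 CPM upward meet skeletal sums of up to 1246 CPM.

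The alpha2delta genes repeated their opposition between classes. *Cacna2d3* stood at 423 to 1019 CPM in skeletal sums (median 704), 72.7 to 157 CPM in visceral sums (median 96.5) and 579 to 1059 CPM in interneuron sums (median 714). Visceral sums lay below all the others, with log2 differences of 2.49 ± 0.08 for skeletal over visceral (adjusted p = 2.01e-16) and -2.71 ± 0.08 for visceral against interneurons (adjusted p = 1.08e-16). *Cacna2d1* was lowest in interneurons, at 132 to 273 CPM, against 845 to 1246 CPM in skeletal and 1048 to 2255 CPM in visceral sums. It was 7.90-fold higher in visceral motor neurons than in interneurons (log2 difference 2.98 ± 0.11, adjusted p = 2.75e-15) and 5.16-fold higher in skeletal motor neurons (2.37 ± 0.11, adjusted p = 6.94e-14). *Cacna2d2* was highest in interneurons, at 139 to 261 CPM (median 201), intermediate in skeletal sums at 75.5 to 134 CPM and lowest in visceral sums at 33.7 to 55.8 CPM. Its skeletal to visceral log2 difference was 1.05 ± 0.07 (adjusted p = 2.97e-11), and that of visceral motor neurons against interneurons was -2.07 ± 0.07 (adjusted p = 8.04e-16).

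Of the 4 *Cacnb* and 6 *Cacng* genes tested, 2 and 4 were called between skeletal and visceral motor neurons (background 66.7%). Between visceral motor neurons and interneurons 2 and 5 were called (background 51.4%). With so few genes, nothing is read from these counts. *Cacnb3* and *Cacng4* had passed the filter through visceral and interneuron sums alone, so a difference from skeletal sums was built into their inclusion. *Cacnb3* stood at 3.76 to 11.2 CPM in skeletal, 14.7 to 32.6 CPM in visceral and 15.4 to 29.6 CPM in interneuron sums, with skeletal below visceral by 1.38 ± 0.10 on the log2 scale (adjusted p = 5.66e-11). *Cacnb4* was lower in visceral sums (97.5 to 174 CPM) than in skeletal sums (137 to 255 CPM) in 9 of 9 libraries (log2 difference 0.53 ± 0.06, adjusted p = 1.48e-07) although the ranges met. *Cacnb1*, 17.9 to 28.5 CPM in visceral sums and 12.6 to 22.9 CPM in interneurons, differed between these by 0.28 ± 0.09 (adjusted p = 0.0120), and *Cacnb2* was not called in any class comparison (adjusted p = 0.147 to 0.937). The TARP gene *Cacng4* was near the limit of detection in skeletal sums, at 0.339 to 5.50 CPM, and stood at 65.2 to 99.3 CPM in visceral and 23.4 to 54.1 CPM in interneuron sums. The groups did not overlap, with log2 differences of -3.65 ± 0.09 for skeletal against visceral (adjusted p = 1.93e-18) and 1.17 ± 0.09 for visceral against interneurons (adjusted p = 3.36e-10). *Cacng2*, the founding TARP, was 1.52-fold higher in skeletal (103 to 191 CPM) than in visceral sums (72.7 to 109 CPM; adjusted p = 1.93e-06). *Cacng3* was higher in skeletal sums (72.4 to 130 CPM) and visceral sums (71.7 to 173 CPM) than in interneurons (45.1 to 91.7 CPM), by 0.60 ± 0.14 and 0.55 ± 0.14 (adjusted p = 0.000706 and 0.00183).

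*Scn1a* and *Scn3a* ran in opposite directions between skeletal and visceral motor neurons. *Scn1a*, an alpha subunit of many fast-firing neurons, stood at 406 to 564 CPM in skeletal sums (median 458), 78.2 to 166 CPM in visceral sums (median 124) and 271 to 395 CPM in interneuron sums (median 325). None of the 3 ranges met, and the log2 differences were 1.99 ± 0.08 for skeletal against visceral (adjusted p = 7.37e-15) and -1.48 ± 0.08 for visceral against interneurons (adjusted p = 1.92e-12). *Scn3a* stood at 65.5 to 105 CPM in skeletal sums, 194 to 353 CPM in visceral sums and 111 to 148 CPM in interneuron sums, again with no overlap. Its log2 differences were -1.53 ± 0.06 for skeletal against visceral (adjusted p = 4.57e-15) and 0.90 ± 0.06 for visceral against interneurons (adjusted p = 5.44e-11). *Scn8a* was 1.79-fold higher in skeletal sums (323 to 474 CPM) than in visceral sums (183 to 255 CPM; adjusted p = 7.12e-15), and *Scn2a* was 1.17-fold lower (adjusted p = 0.000122).

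The sodium beta genes also differed between classes in both directions. *Scn3b* had passed the filter through visceral and interneuron sums alone and *Scn4b* through skeletal sums alone. A difference was thus built into the inclusion of both genes. *Scn3b* stood at 2.20 to 6.38 CPM in skeletal sums, 41.2 to 52.4 CPM in visceral sums and 32.7 to 47.8 CPM in interneuron sums. Skeletal sums lay far below both, by 2.60 ± 0.08 (adjusted p = 7.54e-17) and 2.35 ± 0.08 (adjusted p = 5.49e-16) on the log2 scale. *Scn4b*, whose product takes part in resurgent sodium current, ran the other way at 9.43 to 23.7 CPM in skeletal, 0.513 to 2.58 CPM in visceral and 1.99 to 7.09 CPM in interneuron sums (1.68 ± 0.08 over visceral, adjusted p = 4.48e-14, and 1.22 ± 0.08 over interneurons, adjusted p = 1.08e-11). *Scn2b* was 1.40-fold lower in visceral sums (8.29 to 20.2 CPM) than in interneurons (12.6 to 30.6 CPM; adjusted p = 3.96e-05).

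Against interneurons, 24 of the 31 genes were called in skeletal motor neurons (9 higher, 15 lower; background 59.5%, 31.7% higher and 27.8% lower) and 24 of 31 in visceral motor neurons (12 in each direction; background 51.4%, 31.4% higher and 19.9% lower). Both counts include genes that had not passed the filter in each of the classes compared. The largest difference of a pore gene not yet given was that of *Cacna1i*, at 15.1 to 29.2 CPM in interneurons, 0.855 to 5.20 CPM in skeletal sums and 2.28 to 17.8 CPM in visceral sums. Skeletal sums lay 1.96 ± 0.17 below interneurons (adjusted p = 1.77e-09) and visceral sums 1.20 ± 0.17 below them (adjusted p = 3.91e-06), with a visceral range that met that of the interneurons only through lumbar/sacral replicate 1. No class comparison moved its count of channel genes by more than 1.5-fold without cervical and thoracic replicate 2, or with the libraries of a pool added together.

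*Scn9a*, a sodium pore best known from sensory and sympathetic neurons, behaved unlike the other members, because its level in skeletal motor neurons changed with the library. In skeletal sums of replicate 1 it stood at 49.2 CPM (cervical), 51.6 CPM (thoracic) and 85.8 CPM (lumbar/sacral). In replicate 2 the values were 234, 146 and 188 CPM in the same order. In replicate 3 it stood at 64.7 CPM in the cervical library but at 434 and 304 CPM in the thoracic and lumbar/sacral libraries. The highest library was thus above the lowest by a ratio of 8.11 after adding 5 CPM, a ratio exceeded by 166 of the 9999 genes that passed the filter in skeletal sums, where the median ratio was 1.72 and 6.02% of genes reached 4. Only *Scn9a*, *Cacna1e* (6.51, from cervical replicate 2) and *Cacna1g* (4.42) of the 25 channel genes measured in skeletal sums reached 4. All of S1, S2 and S3 took part, at 39.5 to 425 CPM in S1, 35.3 to 268 CPM in S2 and 61.6 to 481 CPM in S3.

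The same gene was steady in the other classes, at 340 to 512 CPM in visceral sums and 198 to 273 CPM in interneuron sums, where no channel gene reached a ratio of 4. The visceral values were highest in replicate 1 (512, 464 and 445 CPM) and cervical replicate 3 (478 CPM), the libraries in which the skeletal values were lowest. *Scn9a* was therefore called lower in skeletal than in visceral motor neurons (log2 difference -1.59 ± 0.30, adjusted p = 7.07e-05), with a size that changed with the replicate left out. It was -0.95 without replicate 1 (adjusted p = 0.00771), -1.87 without replicate 2 and -1.96 without replicate 3. In thoracic replicate 3 skeletal sums exceeded visceral sums. Against interneurons it was lower by 0.86 ± 0.30 (adjusted p = 0.0164), and 2 of 9 libraries ran the other way. Replicate numbers and libraries also differed in the microglial gene *P2ry12*, which stood in skeletal sums at 4.41 to 6.24 CPM in replicate 1, 25.9 to 37.6 CPM in replicate 2, 6.33 CPM in cervical replicate 3 and 98.2 and 88.7 CPM in the other libraries of replicate 3. *P2ry12* showed a like order in visceral sums (2.30 to 68.2 CPM) and in interneurons (3.30 to 73.9 CPM), where *Scn9a* did not rise. *Cx3cr1*, another microglial gene, divided the libraries in the same way, at 2.71 to 5.20 CPM in the skeletal sums of replicate 1 and cervical replicate 3 and 11.3 to 18.5 CPM in the other 5. A further one, *Csf1r*, was at most 1.99 CPM in any class. The part of these cells or of the handling of a pool in the *Scn9a* values was not tested.

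**Figure D3:**
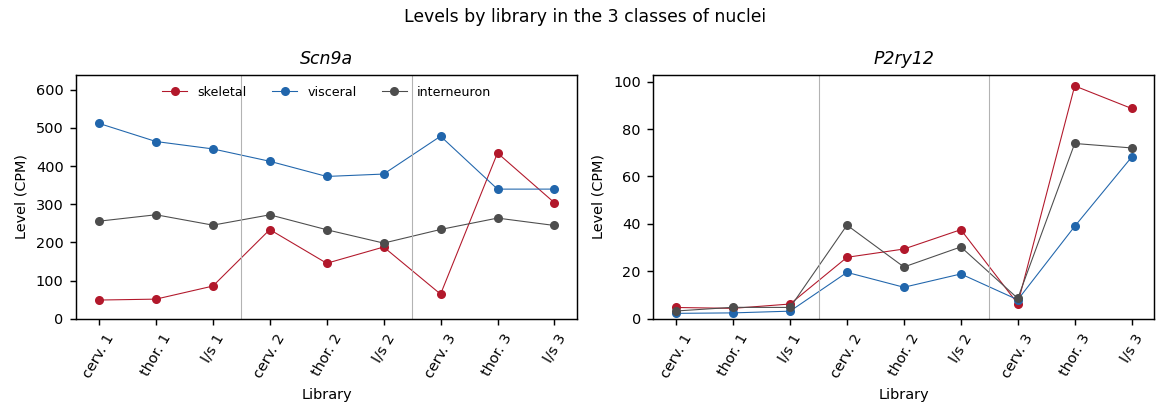
Level in CPM (linear axes from 0) of *Scn9a* (left) and of the microglial gene *P2ry12* (right) in each of the 9 libraries (cerv., thor. and l/s for cervical, thoracic and lumbar/sacral, with the replicate number), 1 line per class of nuclei and grey rules between replicate numbers. Skeletal *Scn9a* runs from 49.2 to 434 CPM while the visceral line stays between 340 and 512 CPM; *P2ry12* differs between libraries in all 3 classes.

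The second comparison was among the skeletal types. With S1, S2 and S3 summed per library and fitted together over 11465 genes, 28 of the 39 channel genes passed the filter, 23 of them in every type. *Cacna1g* and *Cacng5* passed through S2 alone, *Cacna2d4* through S1 alone, and *Scn4b* through S2 and S3. A difference was thus built into the inclusion of these 4 genes, and those of them that were called are part of the counts that follow. Between alpha (S2) and gamma (S3) motor neurons 14 of 28 were called (11 higher and 3 lower in S2; background 31.1%, 17.6% higher and 13.5% lower). Between type 3 (S1) and alpha motor neurons 17 of 28 were called (8 higher, 9 lower; background 25.4%, 12.3% higher and 13.1% lower), and between type 3 and gamma motor neurons 14 of 28 (9 higher, 5 lower; background 19.8%, 11.1% higher and 8.69% lower). The count for S1 against S2 rested on the library term and on replicates 1 and 3. It was 10 without the term, 9 without replicate 1 and 10 without replicate 3, but 17 without replicate 2. The calls of *Cacna1d*, *Cacnb1*, *Cacnb2*, *Cacnb4*, *Cacng7* and *Scn1a* were lost without the term, without replicate 1 and without replicate 3.

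The L-type pore *Cacna1c* separated the 3 types. It stood at 942 to 1667 CPM in S1 (median 1122), 453 to 743 CPM in S2 (median 634) and 135 to 286 CPM in S3 (median 173). The 3 ranges did not meet, and S1 exceeded S3 by 2.63 ± 0.07 on the log2 scale (6.20-fold, adjusted p = 5.46e-19), S2 exceeded S3 by 1.68 ± 0.07 (adjusted p = 1.19e-15) and S1 exceeded S2 by 0.96 ± 0.07 (adjusted p = 1.18e-10). The other, *Cacna1d*, stood at 899 to 1052 CPM in S1, 522 to 950 CPM in S2 and 267 to 374 CPM in S3, so that gamma motor neurons lay below the others, by 1.62 ± 0.08 against S1 (adjusted p = 1.95e-14) and 1.36 ± 0.08 against S2 (adjusted p = 4.61e-13). Its lowest S2 value was again that of cervical replicate 2. The T-type pore *Cacna1g* stood at 19.1 to 90.7 CPM in S2, 1.68 to 8.50 CPM in S1 and 0 to 5.20 CPM in S3. The gene was tested only because of S2, whose range did not meet the others, and S2 exceeded S3 by 2.99 ± 0.18 (adjusted p = 4.01e-13) and S1 by 2.52 ± 0.18 (adjusted p = 3.72e-11). Another T-type pore, *Cacna1h*, was highest in S1, at 62.4 to 115 CPM (1.90-fold over S3, adjusted p = 8.21e-06, and 1.68-fold over S2, adjusted p = 0.000145). *Cacna1a* was highest in S2, at 660 to 992 CPM against 459 to 555 CPM in S3 (1.67-fold, adjusted p = 1.62e-10).

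*Cacna2d1* and *Cacna2d3* were opposed in S2 against the other types, while S1 lay below S3 for both, by 0.73 ± 0.24 (adjusted p = 0.0280) and 0.29 ± 0.10 (adjusted p = 0.0322). In S2, *Cacna2d1* stood at 127 to 289 CPM in 7 libraries, at 499 CPM in lumbar/sacral replicate 2 and at 985 CPM in cervical replicate 2. In S3 it stood at 1178 to 2072 CPM and in S1 at 631 to 1183 CPM. S2 lay below S3 in 9 of 9 libraries (-2.71 ± 0.24, adjusted p = 7.03e-10) and below S1 in 8 of 9 (S1 minus S2 1.98 ± 0.24, adjusted p = 3.05e-07), the exception being cervical replicate 2. *Cacna2d3* stood at 596 to 1648 CPM in S2 (median 1369), 280 to 564 CPM in S1 and 371 to 729 CPM in S3. S2 exceeded S1 by 1.51 ± 0.10 (adjusted p = 7.14e-12) and S3 by 1.22 ± 0.10 (adjusted p = 1.10e-10), each in 9 of 9 libraries, and its lowest value was that of cervical replicate 2.

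**Figure D4:**
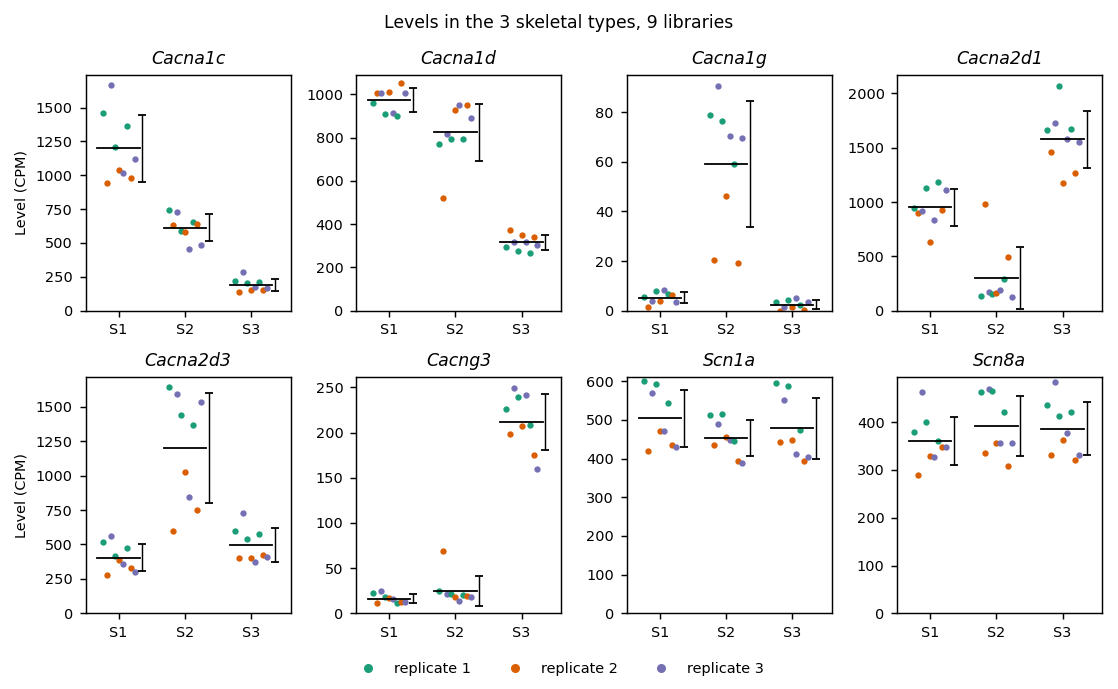
Level in CPM (linear axes from 0) of 8 channel genes in type 3 (S1), alpha (S2) and gamma (S3) motor neurons, 1 point per library coloured by replicate number, with the mean as a line and the SD over 9 libraries as a bar. *Cacna1c* falls from S1 to S3, *Cacna1g* and *Cacna2d3* are highest in S2 and *Cacng3* in S3, while the points of *Scn1a* and *Scn8a* overlap in all 3 types. The high S2 points of *Cacna2d1* and *Cacng3* are cervical replicate 2.

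*Cacng3* marked the gamma type among these genes, with 160 to 249 CPM in S3 against 13.2 to 68.7 CPM in S2 and 11.6 to 24.4 CPM in S1. No ranges met between S3 and the others, and S3 exceeded S1 by 3.37 ± 0.17 (10.3-fold, adjusted p = 1.49e-14) and S2 by 2.97 ± 0.17 (adjusted p = 1.51e-13). *Cacng2*, *Cacng5* and *Cacng8* were lowest in S3: *Cacng5* stood at 10.7 to 48.4 CPM in S2, at most 7.45 CPM in S1 and at most 2.66 CPM in S3 (S2 over S3 by 1.96 ± 0.20, adjusted p = 1.48e-08), *Cacng2* was 2.22-fold higher in S2 than in S3 (139 to 282 against 72.9 to 117 CPM, adjusted p = 1.21e-09) and *Cacng8* was 1.73-fold higher in S1 than in S3 (47.3 to 72.9 against 21.5 to 45.0 CPM, adjusted p = 1.55e-06). Among the beta genes, *Cacnb2* was lowest in S3, at 288 to 476 CPM against 517 to 994 CPM in S2 (1.99-fold, adjusted p = 7.26e-11), and *Cacnb1* was lower in S1 (median 13.3 CPM) than in S3 (median 27.1 CPM; 1.62-fold, adjusted p = 0.00198).

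Few sodium pores were called among the skeletal types. The share of all genes called was also lower there (19.8% to 31.1%) than between the classes (51.4% to 66.7%). No contrast with the class comparison is therefore read from these counts. Of the 5 pores tested, only *Scn2a* was called between S2 and S3 (248 to 404 against 211 to 330 CPM, log2 difference 0.24 ± 0.06, adjusted p = 0.00285), only *Scn1a* between S1 and S2 (0.14 ± 0.05, adjusted p = 0.0316) and none between S1 and S3. At an unadjusted p under 0.05 the share of all genes was 27.5% in that last comparison, and 17 of the 28 channel genes of all types passed. The S1 to S3 log2 differences of the 5 pores lay between -0.22 (*Scn9a*, SE 0.16) and 0.15 (*Scn2a*, SE 0.06), and a missed threshold does not show that the levels are alike. Of the sodium beta genes, *Scn4b* was lower in S1 (1.32 to 11.9 CPM) than in S3 (13.2 to 28.8 CPM) by 1.04 ± 0.21 (adjusted p = 0.000350) and than in S2 by 0.87 ± 0.21 (adjusted p = 0.00204), a call that was lost without replicate 1 and without replicate 3.

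The third comparison set the 3 lumbar/sacral libraries against the 6 others within each class. In skeletal motor neurons 0 of 25 tested channel genes were called by limma (background 0.02%), and at an unadjusted p under 0.05 there were also 0 of 25, against 3.26% of all genes. In interneurons 0 of 28 were called (background 0.0816%), and at an unadjusted p under 0.05 there were 7 of 28, against 3.54% of all genes. With the pool of mice as a term, *Cacna2d1* was called in interneurons, the only channel gene to be so. In visceral motor neurons 5 of 29 were called, 3 higher and 2 lower (background 4.77%, 2.59% higher and 2.17% lower). Of these 5, *Cacng5*, *Cacna1i* and *Scn7a*, passed the filter only through the lumbar/sacral libraries, so their difference was built into their inclusion, and the count is no evidence about the family.

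*Cacng5* stood at 23.9, 17.6 and 18.4 CPM in the visceral nuclei of lumbar/sacral replicates 1, 2 and 3 and at 2.83 to 5.42 CPM in the 6 other libraries (log2 difference 1.47 ± 0.16, adjusted p = 0.000623). *Cacna1i* stood at 17.8, 14.3 and 14.4 CPM against 2.28 to 4.55 CPM (1.27 ± 0.16, adjusted p = 0.00136). *Scn7a* stood at 15.5, 16.0 and 13.9 CPM against 5.26 to 9.76 CPM (0.72 ± 0.16, adjusted p = 0.0264). For each of these the 3 lumbar/sacral sums reached 10 CPM and 0 of the others did. The lack of overlap was thus built into their passing the filter and is no separate result. The *Scn7a* call was lost without thoracic replicate 1 (adjusted p = 0.0545) and without cervical and thoracic replicate 2 (adjusted p = 0.0854).

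*Cacna1e* fell by 0.55 ± 0.13 (adjusted p = 0.0430), from 981 to 1358 CPM in the 6 other libraries to 875, 751 and 826 CPM, and *Cacna2d1* fell by 0.66 ± 0.16 (adjusted p = 0.0411), from 1504 to 2255 CPM to 1254, 1048 and 1234 CPM. The groups did not overlap, yet both calls were lost under most alternatives, among them each removal of 1 library other than thoracic replicate 2.

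**Figure D5:**
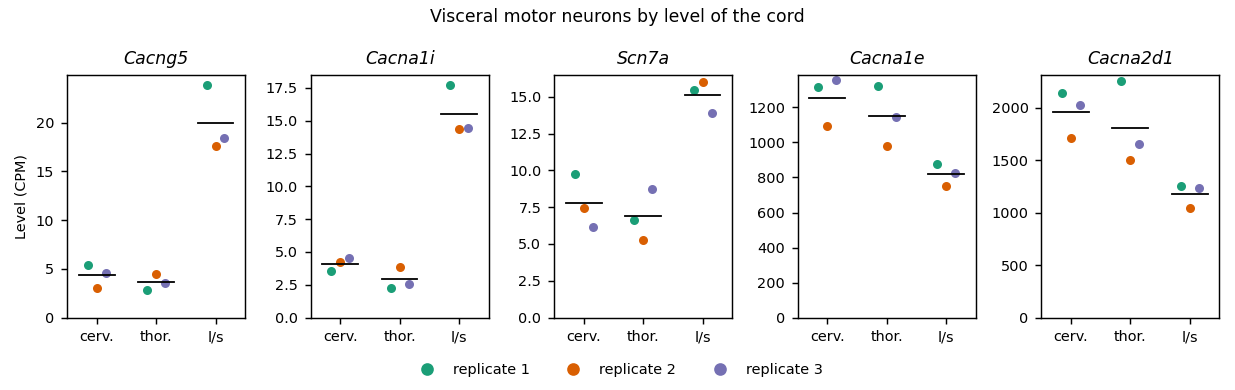
Level in CPM (linear axes from 0) of the 5 called channel genes in the visceral motor neurons of the 3 cervical, 3 thoracic and 3 lumbar/sacral (l/s) libraries, coloured by replicate number, with the mean of each part of the cord as a line. Lumbar/sacral points are above all others for *Cacng5*, *Cacna1i* and *Scn7a* and below all others for *Cacna1e* and *Cacna2d1*. For *Cacng5*, *Cacna1i* and *Scn7a* this separation was built into their passing the filter.

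These regional values moved with the make-up of the visceral class. Of the 467 nuclei of V8, 225, 116 and 122 came from the lumbar/sacral libraries, and of the 247 nuclei of V9 only 1, 1 and 2 did. V8 had *Cacng5* at 48.0 ± 6.30 CPM, *Cacna1i* at 32.9 ± 2.80 CPM and *Scn7a* at 35.6 ± 12.4 CPM (n = 3 libraries), and the lowest *Cacna1e* and *Cacna2d1* of the visceral clusters. Without V8 and V9, *Cacng5* stood at 5.18 to 8.75 CPM in lumbar/sacral and 2.59 to 5.65 CPM in the other visceral sums, *Cacna1i* at 5.18 to 9.21 against 2.47 to 4.50 CPM and *Scn7a* at 4.81 to 8.88 against 5.63 to 10.2 CPM, and none of the 3 passed the filter. *Cacna2d1* then differed by -0.30 (adjusted p = 0.662) and *Cacna1e* by -0.32 (adjusted p = 0.506). The only member called without V8 and V9 was *Cacna1d*, at 261 to 322 CPM in lumbar/sacral against 164 to 222 CPM in the other visceral sums. With all clusters it stood at 250 to 329 against 166 to 224 CPM (0.50 ± 0.13, adjusted p = 0.0535).

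Whether the regional difference was unlike in the motor neuron classes was tested on the skeletal minus visceral difference of each library. Of the 31 genes 6 were called, 1 higher and 5 lower (background 7.13%, 3.71% higher and 3.42% lower): *Cacnb4*, *Scn1a*, *Cacna1d*, *Cacng5* and *Cacna1i*, for which the lumbar/sacral effect was lower in skeletal than in visceral nuclei, and *Cacna2d1*, for which it was higher. *Cacng5* and *Cacna1i* again passed the filter only through lumbar/sacral libraries, so their difference was built in and nothing is read from the count. *Scn1a* had the smallest adjusted p of these: its visceral level was 166, 140 and 136 CPM in lumbar/sacral and 78.2 to 131 CPM in the other libraries, with no overlap, while its skeletal level was 406 to 490 CPM against 434 to 564 CPM. The difference of the effects was -0.68 ± 0.09 (adjusted p = 0.000553). V8 had the highest *Scn1a* of the visceral clusters, and without V8 and V9 the visceral ranges met, at 121 to 151 CPM in lumbar/sacral and 77.7 to 131 CPM in the other libraries. The part of V8 in this difference was not tested.

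Genome position was a property that the choice of genes did not use (GRCm38, GENCODE M21 annotation). In 1 region of chromosome 2 lie 5 sodium pore genes, with other genes between *Scn2a* and *Scn1a*: *Scn3a* at 65457118 to 65567627, *Scn2a* at 65620771 to 65767447, *Scn1a* at 66270778 to 66440840, *Scn9a* at 66480080 to 66634962 and *Scn7a* at 66673425 to 66784914. *Scn2a* is on the plus strand and the other 4 on the minus strand. These genes had unlike patterns. In skeletal against visceral motor neurons *Scn1a* was higher by 1.99 on the log2 scale, while *Scn9a*, the nearest of the other 4, fell by 1.59 and *Scn3a* fell by 1.53. *Scn2b* (45117782 to 45130070) and *Scn4b* (45138395 to 45154152) lie close together on chromosome 9, and of these *Scn4b* was 3.19-fold and *Scn2b* 1.26-fold higher in skeletal than in visceral motor neurons. On chromosome 11, *Cacng1*, *Cacng4* and *Cacng5* lie between 107703218 and 107915055. *Cacng4* was lower in skeletal sums by 3.65 and *Cacng5* was not called (-0.19 ± 0.17, adjusted p = 0.324).

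Genes whose products bind or regulate these channels were read from a list of 22 symbols, 21 were in the matrix and 19 passed the filter in the class fit. Between skeletal and visceral motor neurons 18 of 19 were called (10 higher, 8 lower; background 66.7%). *Fgf13*, a cytoplasmic partner of sodium channel alpha subunits, stood at 24.3 to 105 CPM in skeletal, 780 to 2815 CPM in visceral and 178 to 334 CPM in interneuron sums, and was lower in skeletal than in visceral nuclei by 4.44 ± 0.21 (adjusted p = 7.04e-14). *Gem*, a small GTPase that binds calcium channel beta subunits, was higher in skeletal than in visceral nuclei by 1.62 ± 0.20 (adjusted p = 4.59e-07). Against interneurons 16 of 19 were called in skeletal motor neurons (background 59.5%), with *Gem* higher by 2.73 ± 0.20 (adjusted p = 1.67e-10), and 17 of 19 in visceral motor neurons (background 51.4%), with *Fgf13* higher by 2.33 ± 0.21 (adjusted p = 5.57e-09). Between S2 and S3, 14 of 19 were called (background 31.1%), and *Stac*, an adaptor of L-type channels, was lower in S2 (0 to 170 CPM, median 9.35) than in S3 (193 to 343 CPM) by 4.01 ± 0.35 (adjusted p = 7.78e-10). Its highest S2 value was that of cervical replicate 2, the next was 31.0 CPM, and the S2 and S3 ranges did not meet. In skeletal motor neurons and interneurons no partner gene was called between lumbar/sacral and other libraries. In visceral motor neurons 3 were called between lumbar/sacral and other libraries (background 4.77%): *Fgf13* rose by 1.19 ± 0.20 (adjusted p = 0.00674), while *Stac* fell by 1.26 ± 0.16 (adjusted p = 0.00155) and *Cachd1* by 0.80 ± 0.13 (adjusted p = 0.00544). V8 had the highest *Fgf13* (2868 CPM) and the lowest *Stac* (80.9 CPM) and *Cachd1* (57.5 CPM) of the visceral clusters. The fit without V8 and V9 covered all genes, but the partner genes were not read from it. The part of V8 in these values was thus not examined.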

How the data were processed

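Nuclei of 9 libraries (3 parts of the cord from 3 pools of 4 mice) were profiled by droplet single-nucleus RNA-seq. Per the labels and the study's methods, Cell Ranger 3.1.0 was run by the authors against mm10 and the nuclei were annotated in Seurat, and DESeq2 served the authors for finding cluster markers, which are not used here. The deposited matrix holds SCTransform-corrected counts that the authors rounded to whole numbers, so each value was treated as a score and not as a raw count, and depth had been evened out between the nuclei of a library but not between libraries. Per the methods, the sort gate took singlets and nuclei with outlying gene numbers were removed. A doublet caller is not given in the sources used here, and none was run.

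Scores were summed per library and cluster, class or type (at least 10 nuclei) and expressed as CPM. A gene needed 10 CPM in 3 sums. limma 3.58.1 (R 4.3.3) with a mean-variance trend was fitted to log2(CPM + 5), so fold changes of low genes are understated, with the library as a term between classes or types, and Benjamini-Hochberg adjustment over all genes. Lumbar/sacral effects were fitted without a term, and the difference of effects on per-library skeletal minus visceral differences. The same mice gave the 3 libraries of a number. Deviations of same-numbered libraries correlated at -0.22 to 0.92 (median 0.70) and those of different numbers at -0.82 to 0.61 (median -0.44). Cervical replicate 3 correlated below 0 with its own number and at 0.32 to 0.46 with thoracic and lumbar/sacral replicate 1. Cervical replicate 2 correlated more with thoracic replicate 3 (0.58 to 0.61) than with thoracic replicate 2 (0.34 to 0.51). The pairing by number was thus not borne out for these libraries. On simulated data with 200 changed genes the class layout (11292 genes) recovered 92.6% of 1.5-fold and 99.0% of 2-fold changes, and 4.17% of the calls it made were false. The regional layout (10031 genes) recovered 30.6% and 66.3%, and 8.65% of its calls were false.

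Genes, partner genes and marker lists were chosen with earlier results of these data known, and p-values measure spread between libraries of 3 pools. Values are given for the called genes with the largest change of each subunit type and comparison (up to 2), for those called between parts of the cord, and for the highest cluster of genes under the filter. The alternatives were pseudocounts of 1 and 20 CPM, median-of-ratios scaling, no filter, sums of at least 30 nuclei, the replicate block, sums over pools, each replicate or library left out, and V8 and V9 left out. Equal weighting of clusters and leaving out cervical and thoracic replicate 2 were added after the data had been seen. Some measured channel genes are counted in the totals but not reported here by name. Figures were drawn with matplotlib 3.10.9.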

Additional observations from a re-analysis of the deposited data

Results flagged for a closer look

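The lumbar/sacral effect differed between skeletal and visceral motor neurons for 6 channel genes, by limma on the per-library differences with Benjamini-Hochberg adjustment. The skeletal minus visceral effect, on the log2 scale, was -1.26 for *Cacng5* (adjusted p = 0.00154) and -0.94 for *Cacna1i* (adjusted p = 0.00337). Both were low in the skeletal class sums and high in the visceral cluster V8. Among the skeletal types, *Cacng5* reached 10 CPM in 9 S2 sums and in 0 sums of S1 and S3. Both genes passed the filter only through lumbar/sacral libraries, so that a difference was built into their inclusion. It was -0.68 for *Scn1a* (adjusted p = 0.000553), with effects of -0.19 in skeletal and 0.49 in visceral nuclei, neither called alone. It was -0.44 for *Cacnb4* (adjusted p = 0.00539), with effects of -0.19 and 0.25, and -0.52 for *Cacna1d* (adjusted p = 0.0222), with effects of -0.01 and 0.50. It was 0.76 for *Cacna2d1* (adjusted p = 0.0122), with effects of 0.10 and -0.66. The calls of *Cacna2d1* and *Cacna1d* were lost without lumbar/sacral replicate 1 (adjusted p = 0.0798 and 0.0761) and without lumbar/sacral replicate 2 (adjusted p = 0.0754 and 0.125), that of *Cacna2d1* also under median-of-ratios scaling (0.0639) and that of *Cacna1d* without a filter on low values (0.0547). *Cacna1i* had too few sums at 10 CPM without lumbar/sacral replicate 1 or 2 and was then not tested. The share of V8 in the visceral class differed between the parts of the cord, and its part in these values was not tested.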

How the results depend on the processing

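Of the counts of called channel genes, 118 stayed within 1.5-fold of the count reported and 18 did not. Single genes were followed only where called with at least a 2-fold change between classes or types, or called in a lumbar/sacral comparison. Of their values, 652 kept their side of the threshold and 32 lost it, and none changed direction. Alternatives in which a gene was not tested are left out of these numbers, as are calls under 2-fold between classes or types. Between S1 and S2, where 17 were called, 10 were called with no replicate block (all among the 17) and 9 to 17 with a replicate left out (9 without replicate 1 and 10 without replicate 3). Between lumbar/sacral and other visceral sums, where 5 were called, 3 were called with median-of-ratios scaling, 3 with no filter, 1 (*Cacna1d*) without V8 and V9, 0 with clusters weighted equally, 6 with the replicate block and 0 to 5 with a library left out. The 0 came from removing any lumbar/sacral library, after which *Cacng5*, *Cacna1i* and *Scn7a* no longer had 3 sums at 10 CPM and were not tested. In interneurons the same contrast called 0, and 1 (*Cacna2d1*) with the replicate block. The difference of effects called 6, and 3 to 6 with a library left out (3 without lumbar/sacral replicate 1 or 2). The replicate block or its removal changed no other count by over 1.5-fold. Over all genes, the S1 to S2 count was 2908, and 1930 with no replicate block, 1650 without replicate 1 and 1697 without replicate 3; S2 to S3 gave 3560 and 2221 without replicate 1 (2265 without replicate 3); S1 to S3 gave 2274 and 1456 without replicate 1. The visceral regional count was 478, 715 with the replicate block, 192 without V8 and V9, 123 with clusters weighted equally and 192 to 261 without a lumbar/sacral library; the interneuron count was 8 and 28 with the block; and the difference of effects gave 784, and 420 and 507 without lumbar/sacral replicates 1 and 2. Scaling by median of ratios shifted all genes by -0.13 in the skeletal regional contrast, where no channel gene was called, and by less elsewhere. The cause of each change was not tested except where stated. Corrected values, 3 pools of mice and, in rare clusters such as V8, 3 libraries limit the precision.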
